A study of Mus musculus with 9 samples.

Results

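The genes described here encode the working parts of the lysosome: 31 genes for its membrane proteins, acid hydrolases, soluble cofactors and proton pump, together with the transcription factor Tfeb. The rule takes them by name and uses no measured value, but the list was drawn up with earlier results of these data known. The table writes the names in capitals. The membrane proteins are LAMP1, LAMP2, SCARB2, NPC1, MCOLN1 and CD63. The enzymes are the glycosidases HEXA, GLA, GAA, GLB1, GUSB and NEU1, the sulfatase ARSB, the lipid and lipoprotein hydrolases SMPD1, ASAH1, LIPA and PPT1, and the proteases LGMN and TPP1. PSAP, NPC2 and GRN are soluble proteins that are not enzymes. The proton pump is represented by ATP6V0C, ATP6V0D1, ATP6V0D2, ATP6V1A, ATP6V1B2, ATP6V1H, ATP6AP1 and ATP6AP2. All 31 were found among the 23415 rows of the deposited expression table, and 30 of them had at least 1 TPM in at least 4 libraries and entered the test. The exception was Atp6v0d2. TPM is the abundance of a gene's transcripts after correction for transcript length and library total, so that levels can be compared between genes.

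The libraries came from a mouse study of T cell transfer colitis, in which naive donor T cells cause inflammation of the large intestine. In the knockout group (4 libraries) the donor T cells lacked CD160, a receptor of lymphocytes, and in the control group (5 libraries) they came from wildtype littermates. In both groups the transferred cells were CD4+, CD25- and CD45RBhigh, the recipients were Rag1-/- mice, and 5000 CD4+ T cells were taken by flow sorting from the colonic lamina propria when disease was at its height. Rag1-/- mice lack T and B cells of their own but keep macrophages, other myeloid cells, epithelium and stroma. The labels give neither the age of the mice nor whether each library came from a separate recipient, so p-values refer only to the spread between libraries, which may be technical. Cd160 stood at 5.44 to 18.8 TPM in the knockout and at 31.8 to 212.4 TPM in the control libraries. An entry for the reporter protein tdTomato ranged from 2.52 to 8.78 TPM in the 5 control libraries and was at 0 in each of the 4 knockout ones, so effects of a reporter allele and of CD160 loss cannot be told apart.

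Lysosomes are acidic organelles in which proteins, lipids, glycans and nucleic acids are broken down. A proton pump, the vacuolar ATPase, acidifies the lumen, soluble hydrolases are delivered there mainly by the mannose 6-phosphate receptors, and glycosylated membrane proteins line the limiting membrane. TFEB enters the nucleus when the kinase complex mTORC1 is inactive and binds E-box motifs near the start of many lysosomal genes. T cells have lysosomes, whereas tissue macrophages, which digest what they engulf, are particularly rich in them.

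Control replicate 1 stood apart from all other libraries. It had 7308 genes at 1 TPM or more, against 11088 to 11711 in the other 8, and 25 of the 31 lysosomal genes at that level, against 30 or 31. Counts and medians are therefore given over all 9 libraries and over the 8 without it, and single genes mainly over the 8. The 8 T cell marker genes summed to 3896 to 4974 TPM in the knockout libraries, 4768 to 5519 TPM in control replicates 2 to 5 and 1760 TPM in control replicate 1. The libraries also held macrophage transcripts: the 12 macrophage markers summed to 8414 to 14960 TPM in the knockout libraries, 2311 to 9241 TPM in control replicates 2 to 5 and 979.9 TPM in control replicate 1. None of the 12 was at 0 in any library, and all 12 had a positive difference over 8 libraries, with a median log2 difference of 1.37. Over the same libraries the median log2 difference was 0.90 for stromal and endothelial markers (6 of 7 tested positive), 0.70 for colon epithelium (5 of 7), 0.48 for dendritic cells (4 of 5) and -0.23 for T cell markers (0 of 8), and the part of these cells in the results was not tested. Markers of colon epithelium summed to 81.1 to 158.6 TPM in the 8 libraries, of stroma and endothelium to 68.6 to 388.2 TPM, of dendritic cells to 24.4 to 70.7 TPM, of neutrophils to 20.5 to 154.2 TPM (326.2 TPM in control replicate 1), of CD8 T cells to 5.57 to 87.4 TPM and of NK cells to 1.61 to 40.8 TPM. B cell markers summed to 1.63 to 12.9 TPM there, and 5 of the 6 were at 0 in at least 1 of those libraries. Over 8 libraries the median log2 difference was 0.29 for neutrophil markers (3 of 4 tested positive) and -0.63 for CD8 T cell markers (1 of 2). For NK cells and B cells 1 marker each was tested, with -0.72 and 0.99. None of these markers passed the adjusted threshold.

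Lysosomal transcripts were more abundant in the knockout than in the control libraries, but no member passed the threshold adjusted over all genes. The 31 genes together summed to 3083, 3238, 4477 and 4810 TPM in the knockout libraries and to 263.4, 3197, 1894, 2427 and 1812 TPM in the control libraries, in the order of replicate number kept throughout. Knockout replicate 1 was thus slightly below control replicate 2, while knockout replicates 3 and 4 were above all controls. The mean log2(TPM + 1) over the members was 5.65, 5.76, 6.02 and 6.07 in the knockout and 2.21, 5.62, 5.24, 5.42 and 5.17 in the control libraries, and on this scale every knockout library lay above every control library. The group means were 5.88 ± 0.204 (SD, n = 4) and 4.73 ± 1.42 (SD, n = 5), or 5.36 ± 0.205 (SD, n = 4) in control replicates 2 to 5. The difference was therefore 1.14 over 9 libraries and 0.51 over 8. In bulk RNA, fewer cells of a type and less RNA per cell cannot be told apart.

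**Figure D1:**
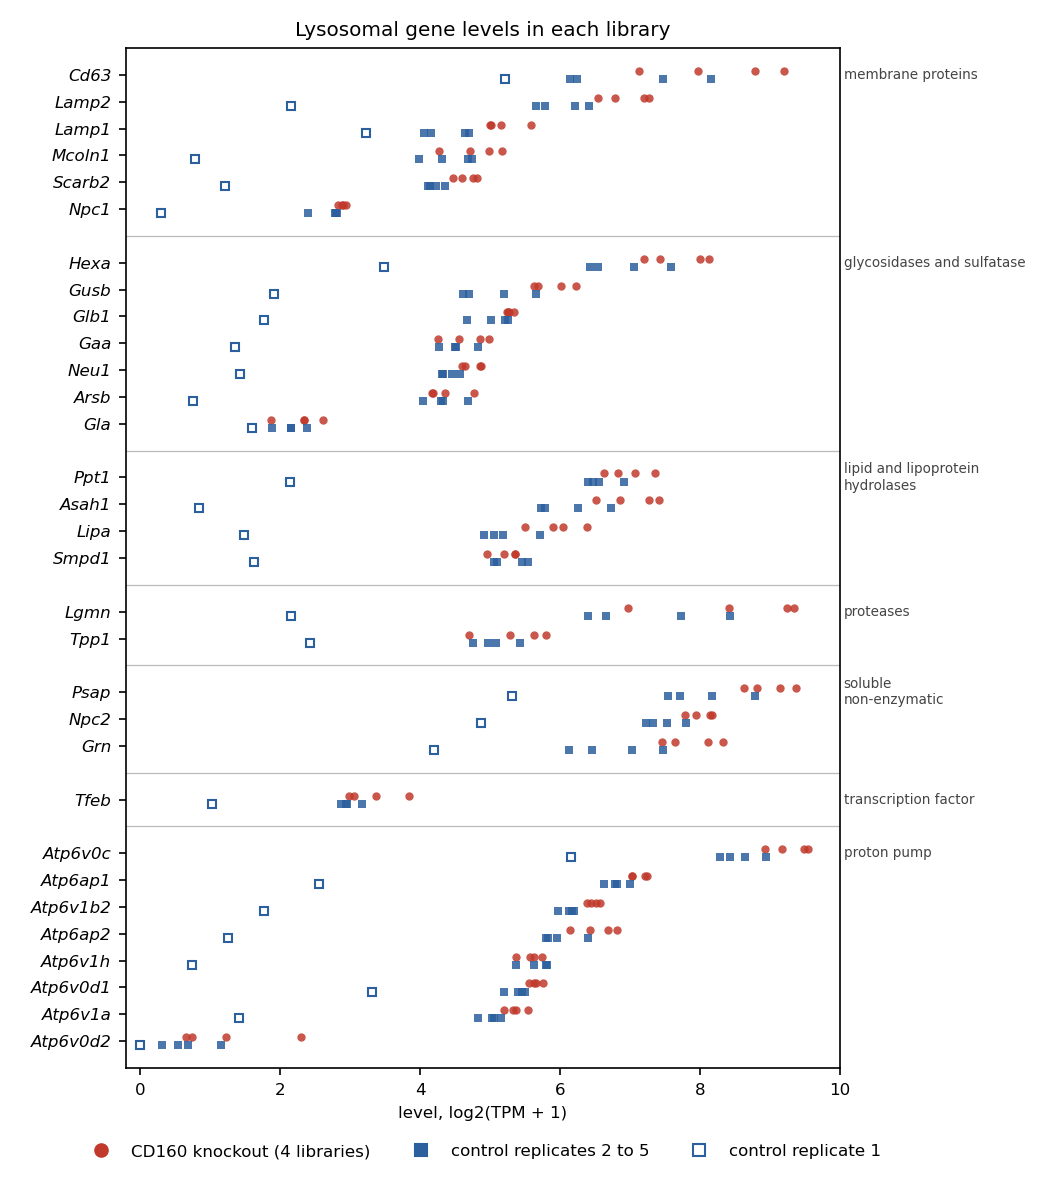
Level of each of the 31 lysosomal genes in each library, as log2(TPM + 1) on the horizontal axis, with genes grouped by role and ordered by abundance within a role. Red circles are the 4 knockout libraries, filled blue squares control replicates 2 to 5 and open squares control replicate 1, which has the lowest level of the 9 libraries for all 31 genes. The spread within the knockout group runs from the wide range of Cd63 and Lgmn to the narrow range of Npc1 and Glb1.

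In the limma fit of all 9 libraries, 0 of 30 members passed an adjusted p of 0.05 in either direction, against 0.0087% of all tested genes in each direction. At an unadjusted p under 0.05, 5 members were higher (Lamp1, Cd63, Psap, Grn and Atp6v0c), against 5.78% of all genes, and 0 were lower, against 0.618%. The log2 difference, knockout minus control, was positive for 30 of 30 members and for 86.7% of all genes, and with median-of-ratios scaling for 29 of 30 (all but Gla) and for 51.9% of all genes. The median difference was 1.07 for the members and 0.46 for all tested genes. Without control replicate 1, again 0 of 30 passed the adjusted threshold, against 0.00873% of all genes higher and 0.0175% lower. In this fit 18 of 30 members were higher at an unadjusted p under 0.05, against 8.44% of all genes, and 0 were lower, against 4.41%. Of the 30 members 28 had a positive difference, against 47.5% of all genes, and the medians were 0.37 and -0.014. Smpd1 and Atp6v1h had the negative differences.

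For 9 of the 30 members every knockout library lay above every control library, against 3.88% of all genes over 9 libraries and 4.01% over 8. They were the membrane proteins Lamp1, Lamp2, Scarb2 and Npc1, the sialidase Neu1, and the pump genes Atp6v0d1, Atp6v1a, Atp6v1b2 and Atp6ap1. No member lay entirely below, against 1.05% and 3.01% of all genes. A limma fit of all 9 libraries with a quality weight estimated for each library gave control replicate 1 a weight of 0.0123 and the others 0.70 to 2.97. The 0.70 was that of control replicate 2, the control with the highest member mean. Control replicate 5, with the lowest member mean of control replicates 2 to 5, had 2.97. Knockout replicate 1, the knockout library with the lowest member mean, had 1.11. The part of each weight in the count was not tested. In that fit 12 of 30 members passed the adjusted threshold as higher, against 3.83% of all genes, and 0 as lower, against 0.705%. The 12 were Lamp1, Lamp2, Scarb2, Hexa, Gusb, Asah1, Lipa, Psap, Npc2, Grn, Atp6v0c and Atp6ap2, with adjusted p from 0.0189 to 0.0482. With equal weights, or without control replicate 1, 0 of these 12 passed.

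**Figure D2:**
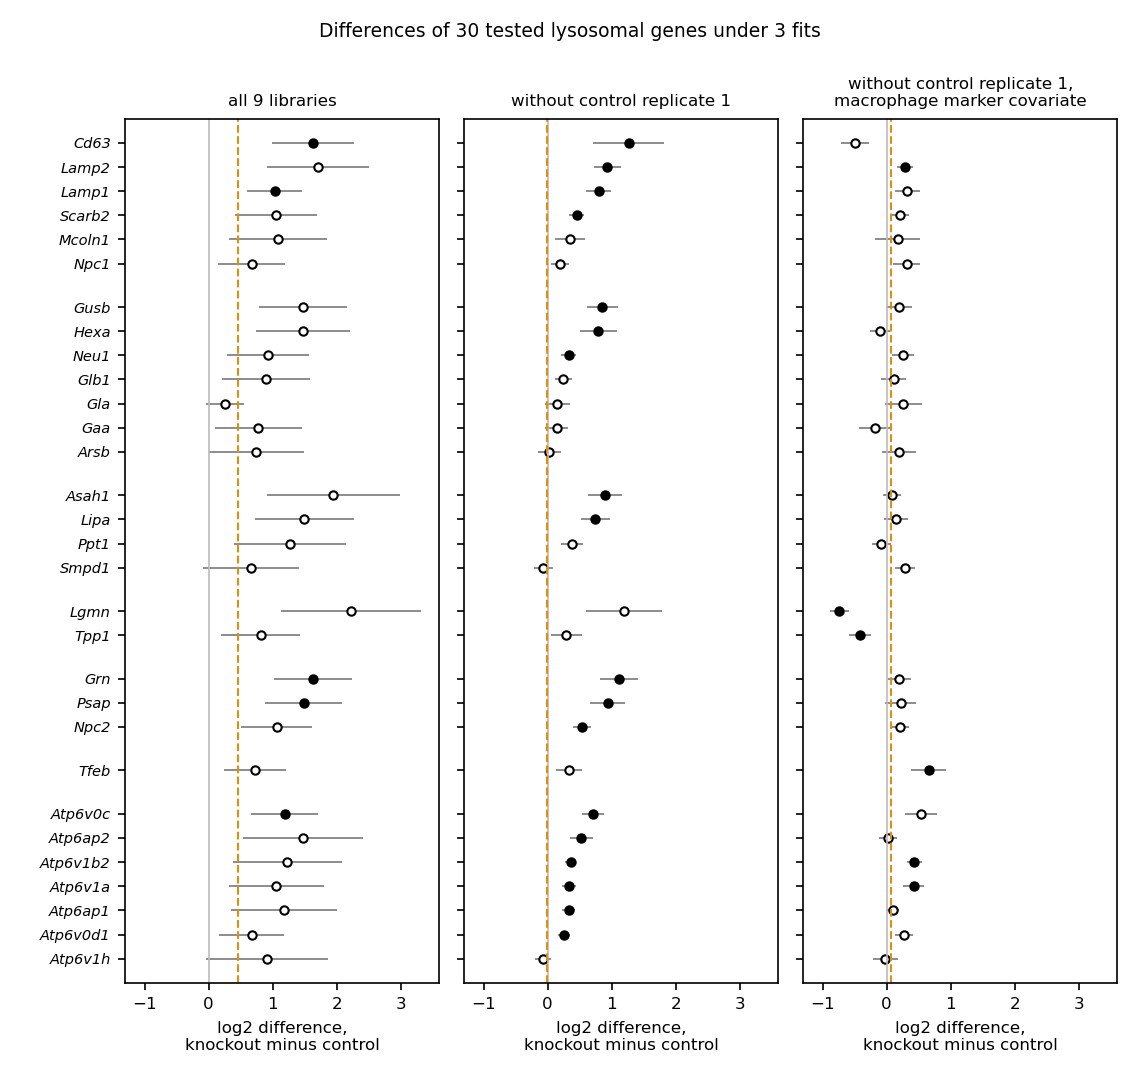
Log2 difference of the 30 tested members, knockout minus control, in limma fits of 9 libraries, of the 8 without control replicate 1, and of those 8 with a macrophage marker covariate; bars are standard errors, filled points have an unadjusted p under 0.05 and the dashed line is the median of all tested genes (0.46, -0.014 and 0.071). Most points lie to the right of the dashed line in each of the fits, and the third holds 4 higher and 2 lower filled points.

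Macrophage markers had differences of the same sign as most lysosomal genes. Over 8 libraries 10 of the 12 had an unadjusted p under 0.05 as higher, against 8.44% of all genes, and 0 passed the adjusted threshold (smallest adjusted p = 0.114, limma), while 7 passed with library quality weights. The mean log2(TPM + 1) of the markers was 6.38, 7.27, 8.00 and 7.95 in knockout replicates 1 to 4 and 3.55, 6.74, 5.49, 6.45 and 5.19 in control replicates 1 to 5. When this mean was added to the fit of 8 libraries as a covariate, the median member difference was 0.20, against 0.071 for all genes. In that fit 23 of 30 members had a positive difference, against 60.2% of all genes. At an unadjusted p under 0.05, 4 members were higher (Lamp2, Tfeb, Atp6v1a and Atp6v1b2), against 5.78% of all genes, and 2 were lower (Lgmn and Tpp1), against 4.63%. None of the 30 passed the adjusted threshold. Knockout replicate 1 had a lower marker mean than control replicates 2 and 4, and knockout replicates 2 to 4 had higher means than all controls. The part of macrophage RNA in the lysosomal differences was not tested. Values from the covariate fit are given beside each group of genes below.

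Tfeb, the transcription factor, was among the less abundant members. Tfeb (chromosome 17, 47737037 to 47792416, GRCm38.p6, as for all positions here) stood at 13.4, 9.31, 6.91 and 7.30 TPM in the knockout libraries and 1.04, 6.66, 6.32, 7.98 and 6.80 TPM in the controls. Knockout replicate 1 was the highest library and knockout replicates 3 and 4 overlapped the controls. The log2 difference was 0.33 ± 0.20 (SE; adjusted p = 0.564) over 8 libraries and 0.66 with the covariate (adjusted p = 0.458). The knockout libraries with the lower macrophage marker means, replicates 1 and 2, had the higher Tfeb levels. Control replicates 2 to 5 did not show this order. Among them replicate 4, with a marker mean of 6.45, had the highest Tfeb level, and replicate 3, with 5.49, the lowest. Without knockout replicate 1 as well as control replicate 1 the difference was 0.15.

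The motif bound by TFEB is an E-box, CACGTG, and in lysosomal promoters it is often flanked as TCACGTGA. Promoter windows from 250 bases before to 50 bases after the gene start were taken from RefSeq (GRCm38.p6), which matched 26 of the 31 members. CACGTG, which reads the same on both strands, was found in the windows of 8 of the 26 members and in 8.09% of the windows of 27025 genes. The longer TCACGTG, on either strand, was in the same 8 windows and in 4.29% of all, and TCACGTGA, which contains both shorter motifs and reads the same on both strands, was in 4 windows and in 1.12% of all. That motif with a further G before and C after it was in 0 of the 26 and in 0.37% of all. The sites are shown for the 8 members that have one, and the other 18 with a window have none. Capitals mark CACGTG, and each site is written on the strand of its gene.
Lamp1: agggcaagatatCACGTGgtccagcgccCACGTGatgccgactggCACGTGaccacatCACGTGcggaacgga (chr8:13159088-13159160, plus strand)
Mcoln1: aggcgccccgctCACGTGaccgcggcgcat (chr8:3500462-3500491, plus strand)
Atp6v0d1: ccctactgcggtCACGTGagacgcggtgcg (chr8:105566050-105566079, minus strand)
Atp6v1a: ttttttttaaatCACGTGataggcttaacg (chr16:44139373-44139402, minus strand)
Gla: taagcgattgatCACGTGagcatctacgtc (chrX:134601215-134601244, minus strand)
Glb1: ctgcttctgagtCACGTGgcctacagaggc (chr9:114401018-114401047, plus strand)
Gaa: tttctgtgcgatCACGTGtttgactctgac (chr11:119267811-119267840, plus strand)
Lgmn: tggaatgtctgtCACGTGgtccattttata (chr12:102439124-102439153, minus strand)

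The Lamp1 stretch of 73 bases ends at the base before the start and held 4 copies, which begin 61, 45, 28 and 15 bases before the start. Mcoln1 and Gla each had another copy, at 71 and 194 bases before the start, beside the ones shown at 45 and 227. The copy in Atp6v0d1 begins 3 bases before the start, so that it spans it, and those in Glb1, Lgmn, Atp6v1a and Gaa begin 48, 49, 131 and 140 bases before. For Lgmn and Atp6v1a the start used by the table lies inside the annotated gene. Over 8 libraries the 8 members with the motif had a median log2 difference of 0.30, all 8 positive, and the 18 with a window but no motif one of 0.53, with 17 positive. A match of letters is a description and not a bound site.

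The lysosomal membrane proteins were higher in the knockout libraries for all 6 genes by mean level. Their mean log2(TPM + 1) was 5.05, 5.37, 5.68 and 5.73 in the knockout and 2.15, 4.99, 4.60, 5.02 and 4.55 in the control libraries, and the groups did not overlap. Lamp2, with Lamp1 one of the main glycoproteins of the lysosomal membrane and a receptor in chaperone-mediated autophagy, lies on chromosome X, 38399647 to 38456460. Lamp2 stood at 92.7, 109.4, 152.9 and 145.9 TPM in the knockout and at 3.45, 84.4, 49.5, 73.1 and 53.9 TPM in the control libraries. All knockout libraries were above all controls, with control replicate 2 the nearest. The mean was 1.92 times that of control replicates 2 to 5, and the log2 difference was 0.93 ± 0.21 (SE; adjusted p = 0.141) over 8 libraries and 1.71 ± 0.79 (SE; adjusted p = 0.745) over 9. With the covariate it was 0.29 (unadjusted p = 0.0467, adjusted p = 0.468).

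Lamp1 (chromosome 8, 13159161 to 13175338), whose promoter carries the 4 E-boxes, stood at 30.9, 31.4, 34.5 and 46.8 TPM in the knockout libraries and at 8.35, 23.9, 16.8, 25.04 and 15.7 TPM in the controls. The groups did not overlap, and the lowest knockout library was above control replicate 4, the highest control. Its log2 difference was 0.80 ± 0.19 (SE; adjusted p = 0.154) over 8 libraries, 1.03 ± 0.42 (SE; adjusted p = 0.714) over 9 and 0.32 with the covariate. Scarb2, the receptor that carries beta-glucocerebrosidase to the lysosome (chromosome 5, 92441311 to 92505657), stood at 21.3, 23.3, 27.2 and 25.9 TPM in the knockout and 1.31, 19.5, 16.2, 17.7 and 16.6 TPM in the control libraries. The groups again did not overlap, within a narrower range than for Lamp1. The log2 difference of Scarb2 was 0.45 ± 0.12 (SE; adjusted p = 0.172) over 8 libraries and 0.22 with the covariate.

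Cd63, a tetraspanin of late endosomes, lysosomes and secreted vesicles (chromosome 10, 128896231 to 128912822), was the most abundant of the membrane proteins and varied most. Cd63 stood at 138.8, 250.4, 439.4 and 586.2 TPM in the knockout and at 36.1, 285.0, 69.5, 176.7 and 74.7 TPM in the control libraries. Control replicate 2 was above knockout replicates 1 and 2, so the groups overlapped. The log2 difference was 1.27 ± 0.56 (SE; adjusted p = 0.387) over 8 libraries and changed sign to -0.49 with the covariate. Npc1, which exports cholesterol, was close to uniform among the knockout libraries at 6.11 to 6.69 TPM, above the 4.27 to 6.02 TPM of control replicates 2 to 5, with a log2 difference of 0.19 ± 0.14 (SE; adjusted p = 0.644) and 0.32 with the covariate. Mcoln1, the calcium channel of the lysosomal membrane, ranged from 18.2 to 35.03 TPM and from 14.8 to 25.9 TPM in the same groups, and its log2 difference was 0.35 ± 0.23 (SE; adjusted p = 0.597) and 0.18 with the covariate.

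The 7 glycosidases and sulfatase strip sugars and sulfate from glycoproteins, glycolipids and glycosaminoglycans. Over 8 libraries 3 of them, Hexa, Gusb and Neu1, were higher at an unadjusted p under 0.05, against 8.44% of all genes. The median log2 difference of the 7 was 0.24, against -0.014 for all genes. Hexa, the alpha subunit of beta-hexosaminidase, which degrades gangliosides, lies on chromosome 9, 59539540 to 59565109. Hexa stood at 146.2, 172.1, 255.3 and 277.7 TPM in the knockout and at 10.2, 190.5, 91.8, 131.8 and 84.9 TPM in the control libraries. Control replicate 2 was above knockout replicates 1 and 2. The log2 difference was 0.79 ± 0.29 (SE; adjusted p = 0.296) over 8 libraries and -0.096 with the covariate.

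Gusb, or beta-glucuronidase (chromosome 5, 129989011 to 130003049), stood at 50.6, 48.6, 63.9 and 74.04 TPM in the knockout and 2.76, 49.6, 25.01, 35.6 and 23.5 TPM in the control libraries. Only control replicate 2 among the controls reached the knockout range, lying between knockout replicates 2 and 1. The log2 difference was 0.85 ± 0.24 (SE; adjusted p = 0.194) over 8 libraries and 0.19 with the covariate. Neu1, the lysosomal sialidase (chromosome 17, 34931253 to 34937297), stood at 28.3, 23.3, 28.02 and 24.1 TPM in the knockout and 1.68, 22.9, 18.9, 20.9 and 19.1 TPM in the control libraries. Its groups did not overlap, although knockout replicate 2 exceeded control replicate 2 by less than 1 TPM. For Neu1 the log2 difference was 0.33 ± 0.11 (SE; adjusted p = 0.282) over 8 libraries and, at 0.26, similar with the covariate.

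The other 4 enzymes of this role differed less. Over 8 libraries the log2 difference was 0.24 for Glb1 (beta-galactosidase), 0.15 for Gla (alpha-galactosidase), 0.14 for Gaa (acid alpha-glucosidase, which degrades glycogen) and 0.028 for Arsb (arylsulfatase B), with adjusted p from 0.513 to 0.973. In the covariate fit these were 0.11, 0.26, -0.18 and 0.20, so that Gaa changed sign, with an SE of 0.24. Glb1 was nearly constant in the knockout libraries, at 36.9 to 39.6 TPM, against 24.6 to 37.2 TPM in control replicates 2 to 5. Gla was the least abundant tested member at a mean of 3.99 ± 1.01 TPM (SD, n = 4) in the knockout libraries.

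The lipid and lipoprotein hydrolases had a mean log2(TPM + 1) of 6.003, 6.24, 6.59 and 6.34 in the knockout and 1.52, 6.11, 5.68, 5.78 and 5.66 in the control libraries, with control replicate 2 above knockout replicate 1. Asah1, the acid ceramidase that releases sphingosine from ceramide (chromosome 8, 41340646 to 41397644), stood at 90.7, 115.4, 170.0 and 154.0 TPM in the knockout and 0.8, 105.3, 54.3, 75.6 and 51.96 TPM in the control libraries. Knockout replicates 2, 3 and 4 were above all controls, while knockout replicate 1 was below control replicate 2. For Asah1 the log2 difference was 0.89 ± 0.26 (SE; adjusted p = 0.207) over 8 libraries and 0.082 with the covariate.

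Lipa, the acid lipase that hydrolyses cholesteryl esters and triglycerides (chromosome 19, 34492316 to 34527474), stood at 44.4, 58.7, 82.95 and 65.1 TPM in the knockout and 1.80, 51.5, 29.1, 35.2 and 32.2 TPM in the control libraries. The pattern matched that of Asah1, with control replicate 2 above knockout replicate 1 only. For Lipa it was 0.75 ± 0.22 (SE; adjusted p = 0.208) over 8 libraries and 0.15 with the covariate. Ppt1, which removes palmitate from proteins (chromosome 4, 122836077 to 122859175), was the most abundant enzyme of the role over the 9 libraries, though Asah1 was higher in the knockout libraries (132.5 against 126.8 TPM on average), and stood at 97.99, 113.0, 163.0 and 133.3 TPM in the knockout and 3.40, 120.1, 88.1, 93.5 and 83.2 TPM in the control libraries. Control replicate 2 lay above knockout replicates 1 and 2, and the log2 difference was 0.38 ± 0.17 (SE; adjusted p = 0.396) over 8 libraries and -0.081 with the covariate. Smpd1, the acid sphingomyelinase, did not share this direction over 8 libraries, with 36.5 ± 4.64 TPM in the knockout libraries against 38.5 ± 6.80 TPM in control replicates 2 to 5 (SD, n = 4 each) and a log2 difference of -0.07 ± 0.15 (SE; adjusted p = 0.907), which turned to 0.28 with the covariate.

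The mean over the 2 proteases spread more within the groups than that of any other role, with SDs of 0.789 (n = 4) in the knockout and 0.608 (n = 4) in control replicates 2 to 5 on the log2(TPM + 1) scale. Lgmn, or legumain, which cleaves after asparagine and activates other lysosomal proteases (chromosome 12, 102394082 to 102439728), stood at 124.9, 341.3, 647.2 and 606.4 TPM in the knockout and 3.47, 344.3, 100.1, 210.4 and 83.3 TPM in the control libraries. Knockout replicates 3 and 4 were the highest, and knockout replicate 1 was below control replicates 2 and 4. The SD of log2(TPM + 1) was 1.09 in the knockout libraries and 0.95 in control replicates 2 to 5, against 0.0816 and 0.10 for the pump subunit Atp6v1b2. The log2 difference of Lgmn was 2.22 ± 1.10 (SE; adjusted p = 0.745) over 9 libraries, 1.19 ± 0.60 (SE; adjusted p = 0.459) over 8 and -0.74 with the covariate (unadjusted p = 0.000845, adjusted p = 0.285). Tpp1, a tripeptidyl peptidase, ranged from 24.9 to 54.6 TPM in the knockout libraries and from 26.1 to 42.2 TPM in control replicates 2 to 5, with log2 differences of 0.29 ± 0.24 (SE; adjusted p = 0.685) and -0.42 in the latter 2 fits.

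The soluble proteins without enzyme activity of their own, Psap, Npc2 and Grn, were all higher at an unadjusted p under 0.05 over 8 libraries. The share of all genes at that p was 8.44%. Their mean log2(TPM + 1) was 8.07, 8.02, 8.46 and 8.62 in the knockout and 4.79, 8.02, 7.17, 7.57 and 6.97 in the control libraries, where control replicate 2 lay next to knockout replicate 2. Psap, the precursor of the saposins that present sphingolipids to hydrolases (chromosome 10, 60277628 to 60302600), was the second most abundant member. Psap stood at 449.9, 396.1, 562.4 and 659.4 TPM in the knockout and 38.6, 439.4, 209.0, 286.5 and 185.1 TPM in the control libraries. Control replicate 2 was above knockout replicate 2, and the other controls were below all knockout libraries. The log2 difference was 0.94 ± 0.27 (SE; adjusted p = 0.198) over 8 libraries, 1.49 ± 0.60 (SE; adjusted p = 0.708) over 9 and 0.22 with the covariate.

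Grn, or progranulin, whose processed granulins act in the lysosome (chromosome 11, 102430507 to 102436809), had the smallest adjusted p of the members over 9 libraries. Grn stood at 174.8, 199.8, 274.9 and 319.4 TPM in the knockout and 17.3, 176.8, 87.1, 129.7 and 68.6 TPM in the control libraries. Control replicate 2 exceeded knockout replicate 1 slightly, and all other controls were lower than all knockout libraries. The log2 difference of Grn was 1.63 ± 0.61 (SE; adjusted p = 0.674) over 9 libraries, 1.11 ± 0.30 (SE; adjusted p = 0.183) over 8 and 0.20 with the covariate. Npc2, which hands cholesterol to Npc1 (chromosome 12, 84754559 to 84773112), stood at 245.3, 219.7, 282.6 and 287.6 TPM in the knockout and 28.4, 221.4, 159.6, 183.0 and 149.7 TPM in the control libraries. Its control replicate 2 was just above knockout replicate 2, and the log2 difference was 0.54 ± 0.14 (SE; adjusted p = 0.171) over 8 libraries and 0.21 with the covariate.

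The proton pump varied little between libraries of a group once control replicate 1 was set aside, with SDs of 0.147 (n = 4) in the knockout and 0.0962 (n = 4) in control replicates 2 to 5 on the log2(TPM + 1) scale. Its mean log2(TPM + 1) was 5.86, 5.77, 5.87 and 6.11 in the knockout and 2.15, 5.67, 5.47, 5.45 and 5.52 in the control libraries, without overlap. Of its 7 tested genes 6 were higher at an unadjusted p under 0.05 over 8 libraries, against 8.44% of all genes. The median log2 difference was 0.34, against -0.014 for all genes. The most abundant member of all was Atp6v0c, the proteolipid of the membrane ring that carries the protons (chromosome 17, 24163865 to 24169678). Atp6v0c stood at 742.0, 484.5, 574.9 and 715.7 TPM in the knockout and 70.7, 489.2, 311.6, 400.1 and 344.4 TPM in the control libraries. Control replicate 2 was just above knockout replicate 2, and the remaining controls were lower than all knockout libraries. The log2 difference of Atp6v0c was 0.70 ± 0.17 (SE; adjusted p = 0.157) over 8 libraries, 1.19 ± 0.52 (SE; adjusted p = 0.745) over 9 and 0.54 with the covariate.

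The subunits of the catalytic, cytosolic part of the pump had smaller differences and little spread. Atp6v1a, the catalytic subunit (chromosome 16, 44085402 to 44139702), stood at 39.1, 40.2, 35.9 and 45.4 TPM in the knockout and 1.67, 27.5, 31.7, 32.4 and 34.7 TPM in the control libraries. Atp6v1b2, its nucleotide-binding partner (chromosome 8, 69088736 to 69113718), stood at 94.03, 82.4, 90.2 and 86.1 TPM in the knockout and 2.42, 71.3, 69.05, 61.7 and 72.4 TPM in the control libraries. For both genes every knockout library was above every control. The log2 difference over 8 libraries was 0.34 ± 0.11 (SE; adjusted p = 0.247) for Atp6v1a and 0.36 ± 0.084 (SE; adjusted p = 0.151) for Atp6v1b2. With the covariate the values were 0.42 and 0.43, each with an unadjusted p under 0.05 (adjusted p = 0.427 and 0.33). Atp6v1h, a regulatory subunit, did not share this pattern, at 46.97 ± 4.98 TPM in the knockout libraries against 49.8 ± 6.997 TPM in control replicates 2 to 5 (SD, n = 4 each), with a log2 difference of -0.077 ± 0.13 (SE; adjusted p = 0.875) and -0.017 with the covariate.

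Atp6v0d1, the stalk subunit of the membrane part (chromosome 8, 105524461 to 105566064), stood at 48.2, 46.1, 52.9 and 49.6 TPM in the knockout and 8.95, 35.9, 41.3, 44.1 and 42.7 TPM in the control libraries. The groups did not overlap, and the log2 difference was 0.26 ± 0.095 (SE; adjusted p = 0.296) over 8 libraries and 0.28 with the covariate. Its isoform Atp6v0d2, known from osteoclasts and macrophages, was near the limit of the table at 1.35, 0.67, 0.58 and 3.91 TPM in the knockout and 0, 1.22, 0.45, 0.24 and 0.61 TPM in the control libraries, and was not tested. Knockout replicates 1 and 4 were the highest of the 9 libraries for it.

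The accessory proteins of the pump had positive differences over 8 libraries that did not pass the adjusted threshold. Atp6ap1, which takes part in pump assembly (chromosome X, 74297097 to 74304721), stood at 129.3, 129.1, 150.9 and 148.2 TPM in the knockout and 4.87, 126.5, 109.0, 111.7 and 97.5 TPM in the control libraries, without overlap. Atp6ap2, also called the prorenin receptor (chromosome X, 12587759 to 12617051), stood at 69.9, 85.1, 111.1 and 102.4 TPM in the knockout and 1.38, 83.8, 54.7, 61.3 and 55.7 TPM in the control libraries, where control replicate 2 was above knockout replicate 1. The log2 difference over 8 libraries was 0.33 ± 0.10 (SE; adjusted p = 0.222) for Atp6ap1 and 0.52 ± 0.18 (SE; adjusted p = 0.277) for Atp6ap2, and with the covariate the values were 0.095 and 0.020.

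**Figure D3:**
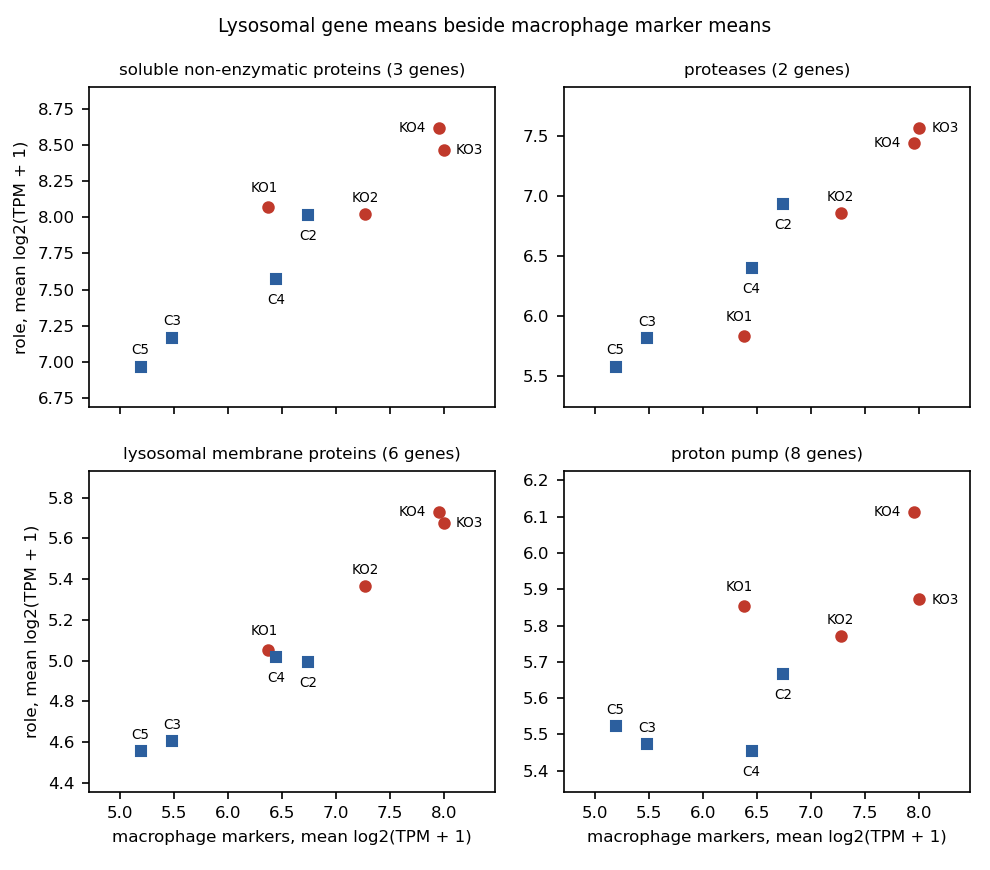
Mean log2(TPM + 1) of 4 roles (vertical axes, which differ in range and do not start at 0) against the mean of the 12 macrophage markers (horizontal axis) in the 8 libraries without control replicate 1; circles are knockout and squares control libraries, labelled by replicate. Knockout replicate 1 has a lower marker mean than control replicate 2 (6.38 against 6.74). Its means are 5.86 against 5.67 for the proton pump and 5.83 against 6.93 for the proteases. For the membrane and soluble proteins they are 5.05 against 4.99 and 8.07 against 8.02.

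Knockout replicate 1 had a lower macrophage marker mean on the log2 scale than control replicate 2 but a higher marker sum, 10350 against 9241 TPM. These libraries were set side by side, a choice made after their values were seen. Of the 30 tested members, 19 were higher in knockout replicate 1, a share near the 58.1% of all tested genes. The 11 that were not higher were Asah1, Atp6ap2, Atp6v1h, Cd63, Gaa, Grn, Hexa, Lgmn, Lipa, Ppt1 and Tpp1. Pump genes were thus on both sides. These are single libraries, and the comparison has no replicate check.

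Other genes of the lysosome had differences of both signs over 8 libraries, with positive ones in the majority. Of 28 other lysosomal enzymes, 23 had a positive difference over 8 libraries and 12 an unadjusted p under 0.05 as higher, against 47.5% and 8.44% of all genes, with a median of 0.32, and 0 passed the adjusted threshold. Plbd2, a phospholipase B-like protein, averaged 19.5 ± 6.63 against 8.91 ± 2.98 TPM in knockout libraries and control replicates 2 to 5 (SD, n = 4 each), a log2 difference of 1.04. For Man2b1, the lysosomal alpha-mannosidase, the levels were 119.2 ± 24.8 against 76.3 ± 14.2 TPM (log2 difference 0.63). Ctsa, the protective protein of Neu1 and Glb1 and the most abundant gene of the list, averaged 257.3 ± 35.1 against 207.3 ± 22.6 TPM (log2 difference 0.31). With the covariate the median of these enzymes was 0.042, and 14 of the 28 were negative.

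Among 22 other lysosomal membrane proteins, 17 differences were positive and 4 had an unadjusted p under 0.05 as higher, against 47.5% and 8.44% of all genes, with a median of 0.13. Laptm5, a membrane protein of leukocytes and the most abundant gene of the list, averaged 1485 ± 98.96 against 1498 ± 72.7 TPM (log2 difference -0.014). The nucleoside transporter Slc29a3 had 18.3 ± 1.03 against 13.1 ± 0.419 TPM (log2 difference 0.45), and Laptm4b had 9.68 ± 2.88 against 3.995 ± 1.88 TPM (log2 difference 1.14). Lmbrd1, which serves cobalamin export, had a log2 difference of 0.45. With the covariate the median of this list was -0.10, and 12 of the 22 were negative.

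Of the 14 other proton pump subunits listed, 11 were tested, 8 with a positive difference and 3 with an unadjusted p under 0.05 as higher, against 47.5% and 8.44% of all genes, around a median of 0.085. Those 3 were the membrane subunits Atp6v0a1 (log2 difference 1.10), Atp6v0b (0.44) and Tcirg1 (0.28). The cytosolic subunit Atp6v1f, the most abundant of the list, had 695.3 ± 24.5 against 742.6 ± 9.37 TPM (log2 difference -0.095). For Atp6v1f every knockout library lay below every control library, as for 1.05% of all genes over 9 libraries. For Tcirg1 every knockout library lay above every control library, as for 3.88% of all genes. With the covariate the median of the list was 0.095.

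The TFEB relatives and the mTORC1 and folliculin proteins that control them had differences of both signs. Of 20 tested, 11 had a positive difference, 8 of them with an unadjusted p under 0.05, and the median was 0.037. The share of positive differences is near the 47.5% of all genes, of which 8.44% were higher at that p. Tfec, a TFEB relative of myeloid cells, had 8.60 ± 2.70 against 3.42 ± 1.63 TPM (log2 difference 1.15). Flcn, or folliculin, which acts on the Rag GTPases in the control of TFEB, had 30.1 ± 2.61 against 23.7 ± 0.681 TPM (log2 difference 0.33), and its partner Fnip2 1.44 ± 0.154 against 0.655 ± 0.322 TPM (log2 difference 0.58). Lamtor2, a scaffold of the same machinery and the most abundant gene of the list, had a log2 difference of -0.16. With the covariate the median of the list was 0.13.

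Genes for sorting and autophagy had medians below that of the members, as did every other related list. Of 14 tested genes for the sorting of lysosomal enzymes, 10 had a positive difference and 2, the retromer subunits Vps35 (log2 difference 0.29) and Vps26a (0.40), an unadjusted p under 0.05, and the median was 0.075. Gnptab, which makes the mannose 6-phosphate tag, had a log2 difference of 0.34, and M6pr, a receptor for that tag, had 265.6 ± 4.42 against 248.2 ± 3.89 TPM (log2 difference 0.097). Of 20 autophagy genes, 13 had a positive difference and 2, Wipi1 (log2 difference 0.55) and Uvrag (0.48), an unadjusted p under 0.05, with a median of 0.049. For both lists the share at that p is near the 8.44% of all genes. Atg3 had a log2 difference of 0.44 and Gabarapl2, the most abundant gene of the list, one of -0.25. In the covariate fit the medians were 0.13 for sorting and 0.11 for autophagy. In the 6 lists together no gene passed the adjusted threshold in the equally weighted fits of 9 or 8 libraries. With library quality weights, 5 of 28 other enzymes, 2 of 22 other membrane proteins, 1 of 11 other pump subunits and 2 of 20 TFEB relatives and regulators passed as higher, against 3.83% of all genes, and 0 of the sorting and autophagy genes did.

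**Figure D4:**
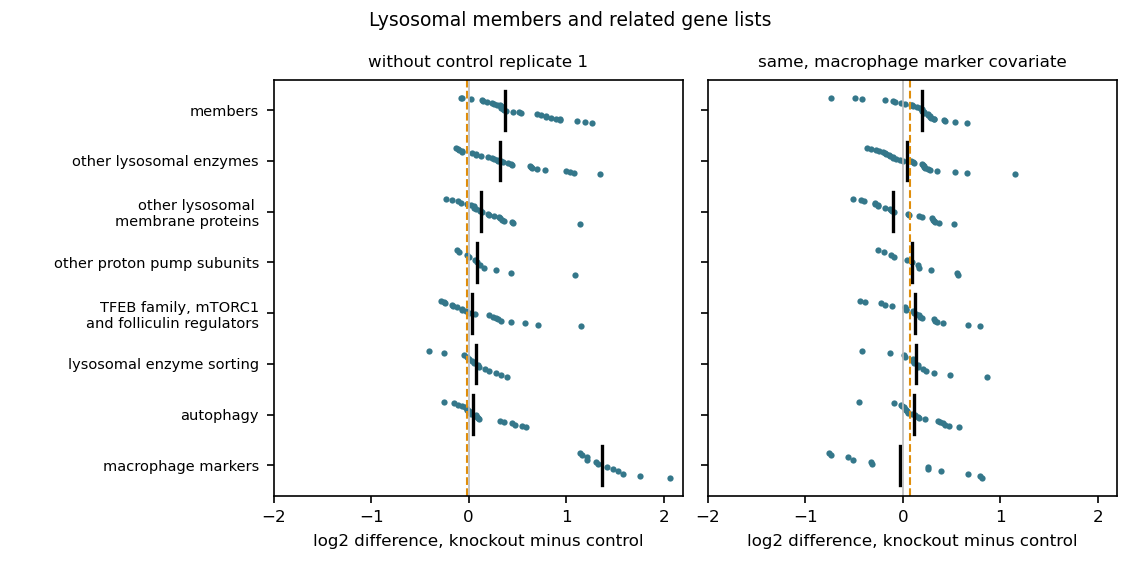
Log2 difference, knockout minus control, of each tested gene (points) in the members, 6 related lists and the 12 macrophage markers, without control replicate 1 on the left and with the macrophage marker covariate added on the right; black ticks are list medians and the dashed line is the median of all tested genes. On the left the medians are 0.37 for the members, 0.32 for the other lysosomal enzymes and 0.13 for the other membrane proteins. Those of the other pump subunits, sorting, autophagy and TFEB lists are 0.085, 0.075, 0.049 and 0.037, and that of the macrophage markers 1.37. On the right the members' median is 0.20. The covariate is the mean of the same 12 macrophage markers, so the average of their differences on the right was fixed in advance.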

How the data were processed

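RNA from CD4+ T cells sorted from colons was measured in 9 libraries, 4 knockout and 5 control. Libraries were made by a modified SMART-Seq2 protocol from polyadenylated RNA and read in paired ends of 38 cycles, per the labels' protocols. The deposited table holds TPM values, which the authors had scaled so that all libraries share 1 total. Tools named in the submitters' processing notes are RSEM 1.2.31, Bowtie2 2.2.9 and Trimmomatic 0.32, with GRCm38 as the build. TPM keeps no depth, so depth and counting error are unknown, and a highly abundant transcript lowers the values of the others.

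Values were tested two-sided on the log2(TPM + 1) scale with limma 3.58.1 under R 4.3.3, using moderated variances with a trend on mean level. Genes entered with 1 TPM or more in 4 or more libraries, 11495 with all libraries and 11457 without control replicate 1, with Benjamini-Hochberg adjustment over all tested genes and a threshold of 0.05. Differences are knockout minus control and understate changes of low genes. Groups and replicate numbers follow the sample titles. The members and the 6 pathway and 9 marker lists were chosen with earlier results of these data known. Members are given in full if their unadjusted p was under 0.05 with 9 or 8 libraries or if they were the most abundant of their role, 21 in all. From a pathway list, the 3 genes of smallest unadjusted p over 8 libraries and the most abundant one are named, except 1 that is not reported here. The marker lists are given as sums and log2 differences. The macrophage covariate is the mean log2(TPM + 1) of 12 markers. Alternatives were other pseudocounts, filters and scaling, library quality weights, the replicate number as a block, and leaving out each library. The procedure was also run on simulated data in which genes varied independently. That setting has no low library shared by many genes and no correlated members, so it does not cover these features of the data. Promoter sequences are from RefSeq. Python 3.11.15 and matplotlib 3.10.9 made the figures.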

Additional observations from a re-analysis of the deposited data

Results flagged for a closer look

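Control replicate 1 lay far below the other 4 control libraries, farther than Dixon's test for 5 samples allows at its 95% level, in the mean log2(TPM + 1) of all members, at 2.21. The same held for the role means of the membrane proteins at 2.15, the glycosidases and sulfatase at 1.76, the lipid and lipoprotein hydrolases at 1.52 and the proton pump at 2.15. Among single members it was the lowest control by this test for 24 genes. Of the membrane proteins these were, as log2(TPM + 1) in that library, 2.15 for Lamp2, 1.21 for Scarb2, 0.299 for Npc1 and 0.782 for Mcoln1. Of the enzymes they were 3.48 for Hexa, 1.36 for Gaa, 1.77 for Glb1, 1.91 for Gusb, 1.42 for Neu1, 0.757 for Arsb, 1.63 for Smpd1, 0.848 for Asah1, 1.49 for Lipa, 2.14 for Ppt1 and 2.43 for Tpp1. The remaining ones were 4.88 for Npc2, 1.03 for Tfeb, 6.16 for Atp6v0c, 3.31 for Atp6v0d1, 1.42 for Atp6v1a, 1.77 for Atp6v1b2, 0.74 for Atp6v1h, 2.55 for Atp6ap1 and 1.25 for Atp6ap2. The test was run on 62 groups of single members, the control and the knockout libraries of each of the 31 genes, and chance marks about 1 in 20 of such groups. The same library supplied every marked value, and the members share it, so the marks are not independent. Its neutrophil marker sum was 326.2 TPM against 20.5 to 154.2 TPM in the other 8 libraries, and its T cell marker sum 1760 TPM against 3896 to 5519 TPM; the cause was not tested.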

How the results depend on the processing

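Over the 21 members given in full and 27 other settings each, 563 of 567 log2 differences kept their sign. Most of these members were chosen by unadjusted p in the same libraries, which favours a stable sign. With the macrophage covariate, which leaves out control replicate 1, Cd63 (-0.49 ± 0.22, SE), Hexa (-0.096 ± 0.16), Ppt1 (-0.081 ± 0.15) and Lgmn (-0.74 ± 0.145) changed sign. For Hexa and Ppt1 the SE was larger than the difference. Signs also changed among the tested members not counted there. Smpd1 (-0.07) and Atp6v1h (-0.077) did so without control replicate 1, and Gla (-0.24) with median-of-ratios scaling over 9 libraries. Arsb (-0.014) did so with library quality weights, and Gaa (-0.18 ± 0.24, SE) and Tpp1 (-0.42 ± 0.17, SE) with the covariate. Library quality weights alone moved the count past the adjusted threshold, from 0 to 12 members, with 21 at an unadjusted p under 0.05 (12.5% of all genes) and a median of 0.50. Over 9 libraries 5 members had an unadjusted p under 0.05, against 5.78% of all genes. Leaving out 1 library changed that count to between 0 and 18. It was 4, 3, 0 and 0 without knockout replicates 1 to 4. Without control replicates 1 to 5 it was 18, 10, 2, 8 and 3. Without control replicate 1 the share of all genes was 8.44%. No such share is given for the other leave-out fits, here or below, or for the pseudocount of 5. Their counts therefore cannot be set against all genes. With 1 library left out, the median difference ranged from 0.37 to 1.29 and the difference of the member means from 0.51 to 1.37. A pseudocount of 5 gave 8 members and a mean difference of 0.93, and median-of-ratios scaling a median of 0.57, a mean difference of 0.64 and a median of all genes of 0.018. Without control replicate 1, median-of-ratios scaling gave 17 members (8.27% of all genes), a median of 0.37 and a mean difference of 0.51, and the covariate a median of 0.20 and 2 members lower. Leaving out each further library, chosen after seeing the data, gave 13 to 21 members, medians of 0.38 to 0.51 and mean differences of 0.45 to 0.60, with 0 members past the adjusted threshold; the cause of these changes was not tested.

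The groups share replicate numbers, but same-numbered libraries did not deviate together (correlations across genes of -0.017, -0.093, -0.14 and -0.089 for numbers 1 to 4). Without control replicate 1 the correlations were -0.22, -0.16 and 0.001 for numbers 2 to 4. No knockout library correlated best with its own number. The check rests on few libraries, so it cannot show whether a number stands for anything shared. With the replicate block 6 members had an unadjusted p under 0.05 over 9 libraries (5.97% of all genes) and 13 over 8 (6.98%), with medians of 1.25 and 0.46 and 0 past the adjusted threshold.

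The depth is unknown, and the low values of Atp6v0d2, Gla and Npc1 are limited by a counting error that cannot be given. The groups of 4 and 5 libraries differ in the tdTomato entry beside Cd160, and over 8 libraries the median differences of macrophage (1.37), stromal (0.90), epithelial (0.70) and T cell markers (-0.23) also lay away from that of all genes.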
